A study of Homo sapiens with 8 samples.

Results

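The levels of 9 genes that brake the cell cycle or answer DNA damage were followed in 2D human intestinal epithelial cells (hIECs) exposed to inflammatory cytokines, to coarse particulate matter (PM10), or to both. The genes were MDM2, CDKN1A, CDKN1B, CDKN2A, CDKN2B, GADD45A, GADD45B, SESN1 and ZMAT3. They were taken by gene name from the 60558 genes in the RNA-seq tables, and all 9 were found and tested. The hIECs were differentiated from H9, one established human embryonic stem cell line that had been kept on mouse embryonic fibroblasts. In the paper, the medium that induced functional hIECs held EGF, valproic acid and Wnt-C59. The 4 groups held 2 libraries each. Normal hIECs (NT) were the control, and a second group was normal hIECs given PM10 at 100 μg/ml for the last 7 days of culture. Inflamed hIECs (IT) received IFNγ and TNFα, each at 50 ng/ml, for 10 days. The last group, PM10-treated inflamed hIECs (IT-PM10), received the same cytokines for 10 days and PM10 at 100 μg/ml for the last 7 of them. The sample records give 10 days as the treatment of all 4 groups. Nothing in the records says that the 2 libraries of a group came from separate cultures, so p-values measure the spread between these libraries, which may be technical.

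p53 is a transcription factor that is stabilised when DNA is damaged or the cell is otherwise stressed. Among its targets are MDM2, which encodes the ubiquitin ligase that marks p53 itself for destruction, and CDKN1A, which encodes p21, an inhibitor of the cyclin-dependent kinases (CDKs) that drive a cell from G1 into S phase. CDK inhibitors form 2 families. The Cip/Kip proteins p21, p27 (CDKN1B) and p57 (CDKN1C) bind cyclin-CDK complexes, and the INK4 proteins, such as p16 (from CDKN2A) and p15 (CDKN2B), bind CDK4 and CDK6 alone. The INK4 genes are known more as genes of senescence and TGF-β signalling than as p53 targets. In the intestine, the crypt cells divide rapidly, and p21 and p27 are known in the cells that leave the crypt and stop dividing.

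A p53 response element consists of a pair of decamers, each with the central letters C-A/T-A/T-G. Matches to it were searched in the 2500 bases upstream of each RefSeq start (GRCh38.p14) of a gene, in the hg38 sequence, with at most 2 of the 20 letters differing and no spacer between the decamers. The motif is its own reverse complement, so both strands were read at once. The matches are shown for the 3 members that had one, CDKN1A, MDM2 and ZMAT3, all known as p53 targets. The capitals mark the 4 central letters of each decamer.
CDKN1A first site: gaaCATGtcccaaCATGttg
CDKN1A second site: gaaGAAGactgggCATGtct
MDM2 site: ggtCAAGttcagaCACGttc
ZMAT3 site: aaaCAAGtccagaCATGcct

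The first CDKN1A site lies at chr6:36676449-36676468 on the plus strand, 2246 bases upstream of the RefSeq start, and runs into the first exon of 1 longer GENCODE transcript. The second lies at chr6:36677331-36677350, 1364 bases upstream, in an intron of 3 longer transcripts. Both differ from the motif in 2 letters. The MDM2 site lies at chr12:68808923-68808942 on the plus strand, 75 bases upstream of the start of the transcripts that begin inside the gene, and in an intron of the longer ones. It also differs in 2 letters. The ZMAT3 site is read from the minus strand at chr3:179070188-179070207, 846 bases upstream of one of the gene's 2 RefSeq starts, in an intron, and differs in 0 letters. Of 10120 genes scanned, 754 (7.45%) held a match. Of the 8 members scanned, 3 did, and CDKN1B, CDKN2A, CDKN2B, GADD45B and SESN1 held none in this window. GADD45A was not scanned. A match is a description of letters, and binding was not measured here.

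Expression was measured as FPKM, a count of fragments divided by transcript length and by all fragments mapped in the library, which sets genes on one scale per length. An FPKM of 1 stood for a mean depth of 4.38 to 6.11 over a transcript, and the 9 genes had depths of 16.5 to 729, so none was near the limit of detection. Between 16547 and 18926 genes were above 0 in a library, and genes of the mitochondrial DNA took 15.5% to 24.2% of the FPKM sum. Cytokine and particle responses matched the labels. CXCL10, an interferon-induced chemokine, was higher by 9.03 on the log2(FPKM + 1) scale in inflamed than in normal hIECs. It was at 1299 ± 21.9 FPKM (SD, n = 2) in inflamed hIECs. CYP1B1, a target of the aryl hydrocarbon receptor, was at 6.43 ± 0.68 in normal and 64.3 ± 2.08 in PM10-treated normal hIECs. It was also higher with the cytokines alone (36.7 ± 1.32) and reached 254 ± 0.11 with both treatments. CYP1B1 was thus not particular to PM10. HMOX1 rose with PM10 in normal hIECs (6.46 ± 0.63 to 10.2 ± 0.47) but was level in inflamed hIECs (4.84 ± 0.13 and 4.96 ± 0.29). TIPARP was higher with PM10 in normal (5.14 against 3.21) and inflamed hIECs (8.12 against 3.29). CYP1A1 did not exceed 0.52 FPKM. The epithelial label was met by few markers. Of the 12 listed, only KRT8 and KRT18 exceeded 2.2 FPKM in any library. KRT8 was at 185 FPKM or more in every library, but VIL1, CDX2, KRT20, CLDN3 and ESRP1 were listed at 0 in all 8, EPCAM did not exceed 0.62 FPKM and CDH1 did not exceed 0.22. Of 9 enterocyte and secretory markers, 8 were listed at 0 in all libraries (APOA1, APOA4, ALPI, SI, FABP2, MUC2, LYZ and CHGA). The ninth, LGR5, was at 2.32 ± 0.44 FPKM in normal and 2.32 ± 0.02 in PM10-treated normal hIECs. It was at 5.47 ± 0.29 in inflamed and 8.10 ± 0.25 in PM10-treated inflamed hIECs (SD, n = 2). The paper describes its 2D hIECs as holding cells marked by CDX2, VIL1, LYZ, MUC2 and CHGA, all listed at 0 here. It also names LGR5, and SOX9, which was not among the markers listed here. The 12 mesenchymal markers were all above 0 in every library, with TAGLN the highest by its mean over all groups, although COL3A1 and VIM were above it in normal hIECs. The list summed to between 5410 and 5458 FPKM in the controls and 4837 and 4851 after PM10. It summed to between 6258 and 6329 in inflamed hIECs, and 5628 and 5636 in PM10-treated inflamed hIECs. Its genes did not move together. With the cytokines without PM10, 6 of the 12 were higher and 4 lower by the calls defined below, beside 25.9% and 30.3% of all genes. The 4 were COL1A2 (-0.13), COL3A1 (-0.53), PDGFRA (-0.69) and PDGFRB (-0.28). The epithelial markers summed to between 641 and 652 FPKM in normal and 347 and 352 in inflamed hIECs, nearly all of it keratins, and KRT8 and KRT18 fell with the cytokines (differences -0.82 and -0.99). The 7 neuronal markers, of which ELAVL3 and ELAVL4 were at 0, summed to between 205 and 213 FPKM in normal and 123 and 124 in inflamed hIECs. Of the 5 tested, 4 were lower by these calls, STMN2 (-1.14) among them, and 1, SYP, was higher (0.42). These sums moved along with the cytokine results of the members given next. In such bulk samples, a change in the share of a cell type and a change in RNA per cell cannot be told apart, and the part of these markers in the results was not tested.

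**Figure D1:**
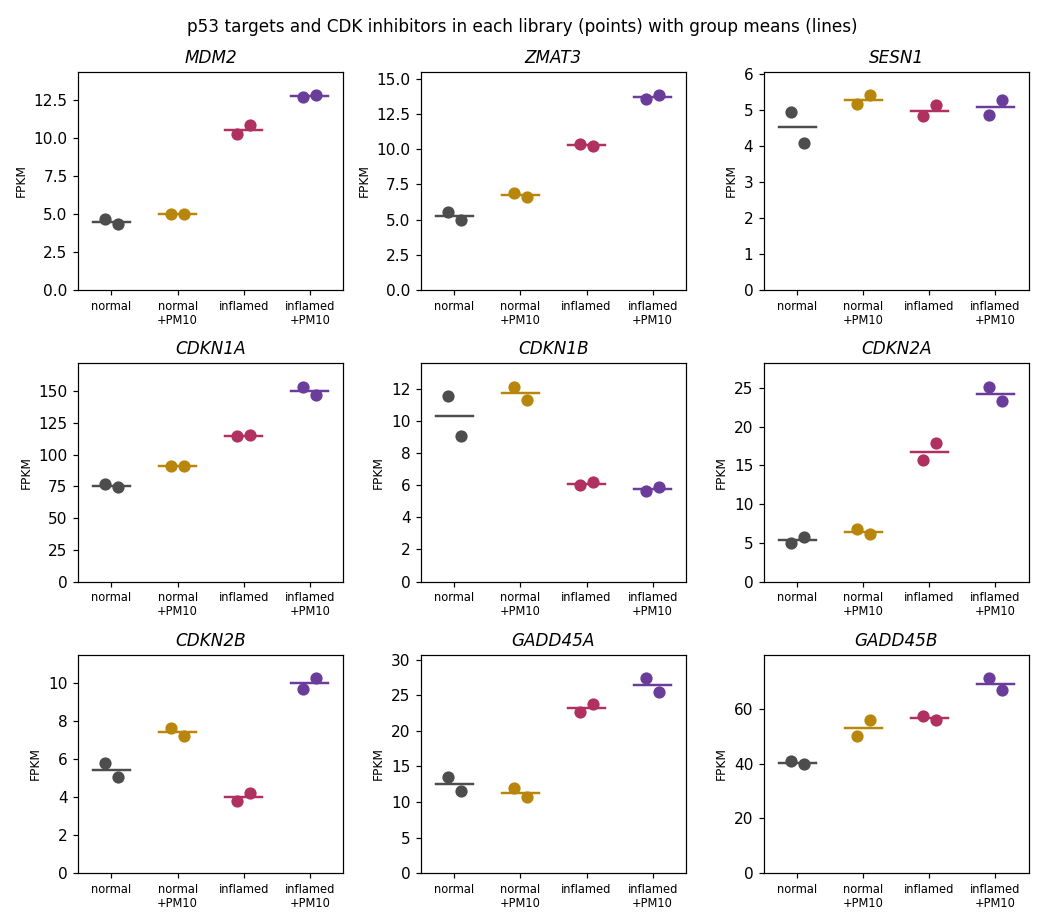
FPKM of each of the 9 genes (y axes, from 0) in each of the 8 libraries (points) with group means (lines), by group. MDM2, ZMAT3, CDKN1A, CDKN2A, CDKN2B, GADD45A and GADD45B were highest in both libraries of PM10-treated inflamed hIECs. CDKN1B was lower in all 4 libraries with cytokines, and CDKN2B was lowest in inflamed hIECs without PM10.

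Values were compared on the log2(FPKM + 1) scale with limma over all 14206 genes that reached 1 FPKM in at least 2 libraries, and a gene was called at an adjusted p under 0.05. This scale understates the change of weakly expressed genes. Over the 4 groups, 8 of the 9 genes differed by limma's F test, all but SESN1 (adjusted p = 0.286), beside 72.1% of all genes tested. The cytokines without PM10 left 6 genes higher (MDM2, CDKN1A, CDKN2A, GADD45A, GADD45B and ZMAT3) and 2 lower (CDKN1B and CDKN2B), where 25.9% of all genes were called higher, 30.3% lower and 56.2% in either direction. With PM10 present in both arms, the cytokines left 7 genes higher and 1 lower, with CDKN2B now among the higher ones. In that comparison 25.8% of all genes were called higher, 39.6% lower and 65.4% in all. PM10 in normal hIECs left 4 higher (CDKN1A, CDKN2B, GADD45B and ZMAT3) and 0 lower, where 9.23% of all genes were called, 5.51% higher and 3.72% lower. PM10 left 6 higher in inflamed hIECs, the same 4 with MDM2 and CDKN2A, and 0 lower, where 15.2% of all genes were called, 6.22% higher and 9.02% lower. The comparisons share libraries, for example the normal ones that serve as control for both PM10 and the cytokines, so they are not independent of each other.

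The balance of all genes depended on the scaling between libraries. For PM10 in normal hIECs it was 783 higher and 528 lower as deposited, 563 and 749 after median centring, 628 and 633 after quantile normalization, and 1549 and 518 after rescaling without mitochondrial DNA genes. For PM10 in inflamed hIECs it was 883 and 1282 as deposited, and 1101 and 1402 after median centring. It was 1136 and 1102 after quantile normalization, and 1150 and 1152 after rescaling without mitochondrial DNA genes. Under each of these 3 scalings the members called and their directions were as in the values as deposited. For scale, the median difference of all genes was 0.06 for PM10 in normal hIECs, -0.03 for the cytokines without PM10, -0.01 for PM10 in inflamed hIECs and -0.11 for the cytokines with PM10.

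**Figure D2:**
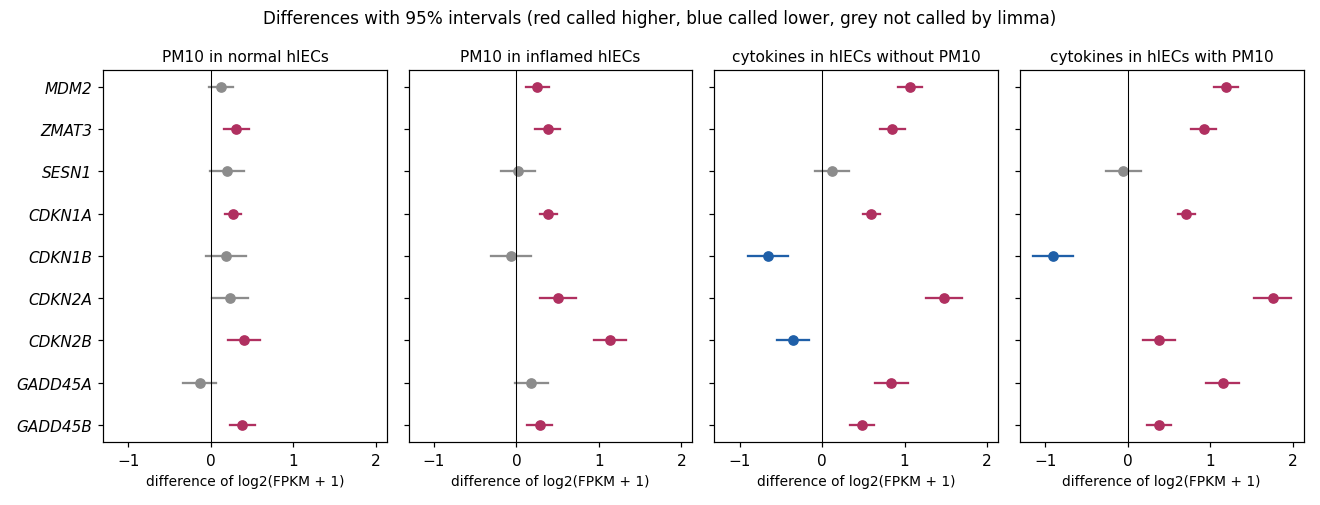
Differences of log2(FPKM + 1) (x axes) of the 9 genes in 4 comparisons, with 95% intervals from the limma fit of 2 libraries a group. Points in red were called higher, in blue lower, in grey not called; CDKN2A had the largest difference with the cytokines (1.48 without PM10) and CDKN2B with PM10 in inflamed hIECs (1.14).

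MDM2, at chr12:68808177-68845544 (ENSG00000135679), showed a cytokine step and a smaller PM10 step on top of it. It was at 4.67 and 4.33 FPKM in the normal libraries, 4.98 and 5.02 with PM10, 10.2 and 10.9 in the inflamed libraries and 12.7 and 12.8 in the inflamed libraries with PM10. All 4 libraries with cytokines lay above all 4 without them. The cytokines raised it by 1.07 on the log2 scale (SE 0.06, adjusted p = 8.4e-06) without PM10 and by 1.20 (adjusted p = 3.4e-06) with PM10. PM10 raised it by 0.25 (SE 0.06, adjusted p = 0.0348) in inflamed hIECs, whereas the difference of 0.13 in normal hIECs was not called (95% interval -0.02 to 0.27, adjusted p = 0.218). The difference between these PM10 effects, 0.13 (95% interval -0.08 to 0.33), was not called either. The PM10 call in inflamed hIECs was lost when either library of the inflamed group, of the PM10-treated inflamed group or of the PM10-treated normal group was left out (adjusted p between 0.0623 and 0.175). Exons of CPM, a pseudogene and a long non-coding RNA overlap those of MDM2, over at most 9.5% of its exon bases each, and the libraries carry no strand.

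The site that precedes the internal MDM2 start is shown in its surroundings, with the 20 letters of the match in capitals, at chr12:68808883-68808982 (hg38, plus strand), because this start is the one known to answer p53.
MDM2 intron: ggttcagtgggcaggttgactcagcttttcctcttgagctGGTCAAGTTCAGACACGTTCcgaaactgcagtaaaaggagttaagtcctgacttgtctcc
The FPKM of MDM2 sums over its transcripts, so use of this start was not measured.

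ZMAT3, at chr3:178960121-179072215 (ENSG00000172667), encodes an RNA-binding zinc finger protein known as a p53 target. The normal libraries had 5.56 and 4.98 FPKM, or 6.87 and 6.62 under PM10, while the inflamed ones had 10.3 and 10.2, or 13.5 and 13.8 under PM10. No 2 groups overlapped, and each step was upward. With the cytokines it rose by 0.85 (SE 0.06, adjusted p = 3.3e-05) without PM10 and by 0.92 with it. PM10 raised it by 0.31 (adjusted p = 0.0311) in normal and by 0.38 (adjusted p = 0.0102) in inflamed hIECs, and the difference between these effects was 0.07 (95% interval -0.14 to 0.29). Its PM10 calls were lost in several fits with 1 library left out. The difference itself stayed at 0.24 to 0.37 in normal and 0.37 to 0.39 in inflamed hIECs. In inflamed hIECs the call was lost without any of the 4 libraries compared (adjusted p 0.0583 to 0.0692). In normal hIECs it was lost without normal replicate 2, without either PM10 library, and without any 1 of the 4 inflamed libraries, which serve only to estimate the spread (adjusted p 0.0639 to 0.158).

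SESN1, at chr6:108984309-109094846 (ENSG00000080546), encodes sestrin 1, a p53 target that restrains mTORC1 signalling. It stayed between 4.10 and 5.42 FPKM over all 8 libraries. Normal hIECs had 4.95 and 4.10 FPKM, PM10-treated normal hIECs 5.17 and 5.42, inflamed hIECs 4.83 and 5.16, and PM10-treated inflamed hIECs 4.88 and 5.28. The spread of the normal libraries, 0.60 (SD, n = 2), was wider than most gaps between the groups. The largest difference was with PM10 in normal hIECs, 0.19 (95% interval -0.02 to 0.40, adjusted p = 0.201), where the groups did not overlap. None of its differences was called, and the 95% interval was -0.09 to 0.33 for the cytokines without PM10, -0.26 to 0.16 with PM10 and -0.19 to 0.23 for PM10 in inflamed hIECs. Without normal replicate 1, it was called higher both for PM10 in normal hIECs (0.30, adjusted p = 0.0495) and for the cytokines without PM10 (0.23, adjusted p = 0.0496).

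CDKN1A, at chr6:36676460-36687337 (ENSG00000124762), had the highest level of the 9 genes in every library. The normal libraries had 76.6 and 74.7 FPKM, those with PM10 91.4 and 91.3, the inflamed ones 114 and 116, and those with both 154 and 147. The groups did not overlap, and the mean in the last was 1.99 times that in the first. The cytokines raised it by 0.60 on the log2 scale (SE 0.04, adjusted p = 2.6e-05) and, with PM10, by 0.71 (adjusted p = 7.2e-06). PM10 raised it by 0.27 (adjusted p = 0.0144) in normal hIECs and by 0.38 (adjusted p = 0.00212) in inflamed hIECs. The difference between the PM10 effects was 0.12 (95% interval -0.03 to 0.26). The calls with cytokines and the PM10 call in inflamed hIECs held with any 1 library left out, while that in normal hIECs was lost without PM10 replicate 1 or 2 (adjusted p = 0.0919 and 0.0869). DINOL, an antisense RNA over 4.9% of the exon bases of CDKN1A, was listed at 0 in all libraries.

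CDKN1B, at chr12:12685498-12722369 (ENSG00000111276), encodes p27, the Cip/Kip inhibitor of resting cells, and moved opposite to CDKN1A with the cytokines. It was at 11.5 and 9.02 FPKM in the normal group, 12.1 and 11.3 with PM10 alone, 6.02 and 6.17 with the cytokines alone and 5.63 and 5.89 with both. All 4 libraries with cytokines lay below all 4 without. It fell by 0.66 (SE 0.10, adjusted p = 0.00127) without PM10 and by 0.91 (adjusted p = 0.000188) with PM10. PM10 itself gave differences of 0.18 (95% interval -0.06 to 0.42) in normal and -0.07 (95% interval -0.31 to 0.17) in inflamed hIECs, neither called. The 2 normal libraries differed more in this gene than those of the other groups, with an SD of 1.78 FPKM. Without normal replicate 1, PM10 in normal hIECs was called (0.34, adjusted p = 0.0274), as was the interaction (-0.41, adjusted p = 0.0478). Among the Cip/Kip genes, CDKN1C, which encodes p57 and was not one of the 9, had the larger fall: its mean was 26.5 ± 0.23 FPKM in the controls, 34.3 ± 2.35 after PM10, 6.64 ± 0.96 in inflamed hIECs and 4.22 ± 0.73 with both (SD, n = 2). The cytokines lowered CDKN1C by 1.86 without PM10 (difference -1.86, adjusted p = 1.3e-05) and gave a difference of -2.76 with it.

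CDKN2A, at chr9:21967752-21995301 (ENSG00000147889), had the largest relative range of the 9. It was at 4.93 and 5.80 FPKM in the controls, 6.74 and 6.18 after PM10, 15.7 and 17.8 in inflamed hIECs and 25.2 and 23.3 with both. The groups did not overlap, and the highest library was 5.10 times the lowest. With the cytokines it rose by 1.48 (SE 0.09, adjusted p = 1.3e-05) without PM10 and by 1.76 (adjusted p = 4.01e-06) with PM10. In inflamed hIECs PM10 raised it by 0.51 (SE 0.09, adjusted p = 0.0140). The difference of 0.23 in normal hIECs was not called (95% interval 0.01 to 0.45, adjusted p = 0.152), nor was the difference between the effects (0.28, 95% interval -0.04 to 0.59). The PM10 call in inflamed hIECs was lost without inflamed replicate 1 (0.42, adjusted p = 0.0874) and without PM10-treated inflamed replicate 1 or 2 (adjusted p = 0.0900 and 0.0533). CDKN2A encodes both p16, the INK4 inhibitor, and ARF, which restrains MDM2; the gene-level FPKM does not separate their transcripts. CDKN2B-AS1, an antisense RNA over 15.3% of its exon bases, did not exceed 0.24 FPKM.

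CDKN2B, the neighbour of CDKN2A at chr9:22002903-22009305 (ENSG00000147883), was the one member whose PM10 effect differed between normal and inflamed hIECs. It encodes p15, an INK4 inhibitor known to be induced by TGF-β. It was at 5.76 and 5.03 FPKM without treatment, 7.64 and 7.21 with PM10 alone, 3.78 and 4.21 in inflamed hIECs and 9.70 and 10.2 with both. No 2 groups overlapped; inflamed hIECs were lowest and PM10-treated inflamed hIECs highest. The cytokines lowered it without PM10 (difference -0.35, SE 0.08, adjusted p = 0.00787) and raised it with PM10 (0.38, adjusted p = 0.00458). PM10 raised it by 0.40 (adjusted p = 0.0290) in normal and by 1.14 (SE 0.08, adjusted p = 0.000401) in inflamed hIECs, where 99.8% of all genes had a lower difference. The interaction was 0.74 (SE 0.12, 95% interval 0.47 to 1.01, adjusted p = 0.0149), beside 6.6% of all genes called in either direction and 2.11% called higher and 4.48% called lower. The rise with PM10 in inflamed hIECs and the rise with cytokines under PM10 held with any 1 library left out. The fall with cytokines was lost without inflamed replicate 1 (-0.29, adjusted p = 0.0550). The interaction was lost without inflamed replicate 1 or any 1 of the 4 PM10-treated libraries, at differences of 0.67 to 0.77 (adjusted p 0.0518 to 0.0653). The rise with PM10 in normal hIECs was lost without normal replicate 2, either PM10-treated normal library or either PM10-treated inflamed library (adjusted p 0.0571 to 0.153).

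**Figure D3:**
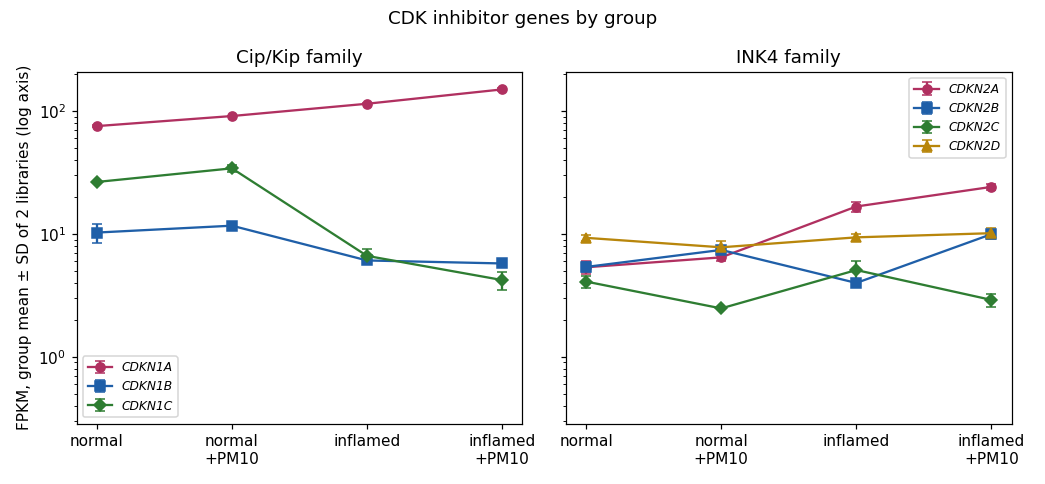
Mean FPKM ± SD of 2 libraries (log axis) of the Cip/Kip genes (left) and the INK4 genes (right) in the 4 groups; lines join the means of a gene. CDKN1A rose while CDKN1B and CDKN1C fell with the cytokines, and CDKN2B crossed CDKN2A, falling to 3.78 and 4.21 FPKM in inflamed hIECs and reaching a mean of 9.98 with PM10.

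The order of the CDK inhibitors therefore differed between the groups. By mean FPKM, a per-length scale, normal hIECs had CDKN1A first (75.7 ± 1.30), then CDKN1C, CDKN1B (10.3 ± 1.78) and CDKN2D (9.31 ± 0.57), with CDKN2A (5.36 ± 0.61) and CDKN2B (5.40 ± 0.52) level with each other and CDKN2C at 4.10 ± 0.45. CDKN1B and CDKN2D did not differ beyond their spread. In PM10-treated inflamed hIECs CDKN1A (151 ± 4.44) was followed by CDKN2A (24.2 ± 1.34), then CDKN2D (10.2 ± 0.97) and CDKN2B (9.98 ± 0.39), which were level, and CDKN1B (5.76 ± 0.18). All of these are SD with n = 2.

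GADD45A and GADD45B encode small nuclear proteins that answer DNA damage and other stress and act on p38 and JNK signalling. GADD45A, at chr1:67685201-67688334 (ENSG00000116717), is the p53 target of the pair. It was at 13.6 and 11.6 FPKM in the controls, 11.9 and 10.8 after PM10, 22.7 and 23.7 in inflamed hIECs and 27.4 and 25.5 with both. The 4 libraries with cytokines lay above the 4 without, and the normal groups with and without PM10 overlapped. The cytokines raised it by 0.84 (SE 0.09, adjusted p = 0.000143) and, with PM10, by 1.15 (adjusted p = 2.03e-05). PM10 gave differences of -0.14 (95% interval -0.34 to 0.07) in normal and 0.18 (95% interval -0.02 to 0.38) in inflamed hIECs, neither called. The interaction of 0.32 (95% interval 0.03 to 0.60) missed the threshold after adjustment (adjusted p = 0.173). These calls held with any 1 library left out.

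GADD45B, at chr19:2476122-2478259 (ENSG00000099860), is known as a target of NF-κB and TGF-β signalling. After CDKN1A it was the highest of the members, with 41.0 and 39.9 FPKM in the controls, 50.2 and 56.0 after PM10, 57.5 and 56.2 in inflamed hIECs and 71.4 and 67.1 with both. PM10-treated normal hIECs reached nearly the level of the inflamed hIECs, 53.1 ± 4.13 against 56.9 ± 0.90 (SD, n = 2), less than the spread of the former. The cytokines raised it by 0.48 (SE 0.06, adjusted p = 0.000513) without PM10 and by 0.38 (adjusted p = 0.00136) with PM10. PM10 raised it by 0.38 (adjusted p = 0.0159) in normal and by 0.28 (adjusted p = 0.0279) in inflamed hIECs, with an interaction of -0.10 (95% interval -0.31 to 0.11). The PM10 call was lost in normal hIECs without normal replicate 2 (adjusted p = 0.0566) or PM10 replicate 2 (adjusted p = 0.0851), and in inflamed hIECs without any 1 of the 4 libraries compared (adjusted p 0.0763 to 0.154).

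How many members were called with PM10 thus depended on which libraries were in the fit. In normal hIECs the count of 4 became 0 without PM10 replicate 2 (220 of all genes then called, against 1311), 1 without PM10 replicate 1 (192) or normal replicate 2 (714), 2 without either PM10-treated inflamed library (655 and 658), and 6 without normal replicate 1 (2601), when CDKN1B and SESN1 joined. With normal hIECs and PM10-treated normal hIECs alone in the fit it was 0, and 23 of all genes were called. In inflamed hIECs the count of 6 became 2 without inflamed replicate 1 (672) or PM10-treated inflamed replicate 1 or 2 (720 and 724) and 3 without inflamed replicate 2 (679). CDKN1A and CDKN2B stayed called in each of these 4 fits. The cytokine counts of 8 stayed between 7 and 9.

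MDM4, the partner of MDM2 that holds p53 inactive, was near the low end of detection. It was at 2.11 ± 0.10, 2.48 ± 0.31 and 2.01 ± 0.28 FPKM in normal, PM10-treated normal and inflamed hIECs, and at 0.74 ± 0.16 with both treatments. PM10 lowered it in inflamed hIECs (difference -0.80, adjusted p = 0.00513) and not in normal hIECs (0.16, adjusted p = 0.381), with an interaction of -0.96 (adjusted p = 0.0185). The interaction was lost without PM10 replicate 2, inflamed replicate 2 or PM10-treated inflamed replicate 1 (adjusted p 0.0652 to 0.0685). MDM2 and MDM4 thus differed in sign under PM10 in inflamed hIECs.

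Of 29 other genes of the p53 pathway, MDM4 included, the cytokines without PM10 left 21 higher and 3 lower. Of all genes, 25.9% were higher and 30.3% lower in that comparison. The median difference was 0.62 beside -0.03 for all genes. With PM10 in both arms, 20 of the 29 were higher and 5 lower, beside 25.8% and 39.6% of all genes. The median was then 0.60 beside -0.11. CD82, a tetraspanin, led, from 7.51 ± 0.82 FPKM in normal to 53.2 ± 0.53 in inflamed hIECs (2.67 on the log2 scale). It was followed by PMAIP1, which encodes the BH3-only protein NOXA (2.02), FAS, the death receptor (1.85), and RRM2B, a p53-induced ribonucleotide reductase subunit (1.16). The first 3 are also known to answer interferon or NF-κB signalling. PM10 in normal hIECs left 5 of the 29 higher and 0 lower, beside 5.51% and 3.72% of all genes (median 0.17 beside 0.06). EDA2R (0.38, adjusted p = 0.0340), CD82 (0.37) and XPC (0.35) were among the 5. The count of 5 was 3 to 8 over the 3 scalings, with 2 lower after median centring or quantile normalization. It was 0 without either PM10-treated normal or either PM10-treated inflamed library and with only the compared groups fitted, and 1 without normal replicate 2 or either inflamed library. In inflamed hIECs PM10 left 8 higher and 3 lower, beside 6.22% and 9.02% of all genes, at a median of 0.11 beside -0.01. The 3 lower of 29 do not set the list apart from all genes. The 8 became 4 without inflamed replicate 1 and 3 without inflamed replicate 2 or either PM10-treated inflamed library, and the 3 lower became 2 in each of these fits, where BBC3 was lost. RRM2B (0.66, adjusted p = 0.00102) and CD82 (0.55) were among those that rose. GDF15, a secreted stress cytokine, had the largest fall, from 24.3 ± 0.52 to 10.3 ± 0.02 FPKM (difference -1.17, adjusted p = 0.000397), with MDM4 and BBC3, which encodes PUMA (-0.32), also lower.

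**Figure D4:**
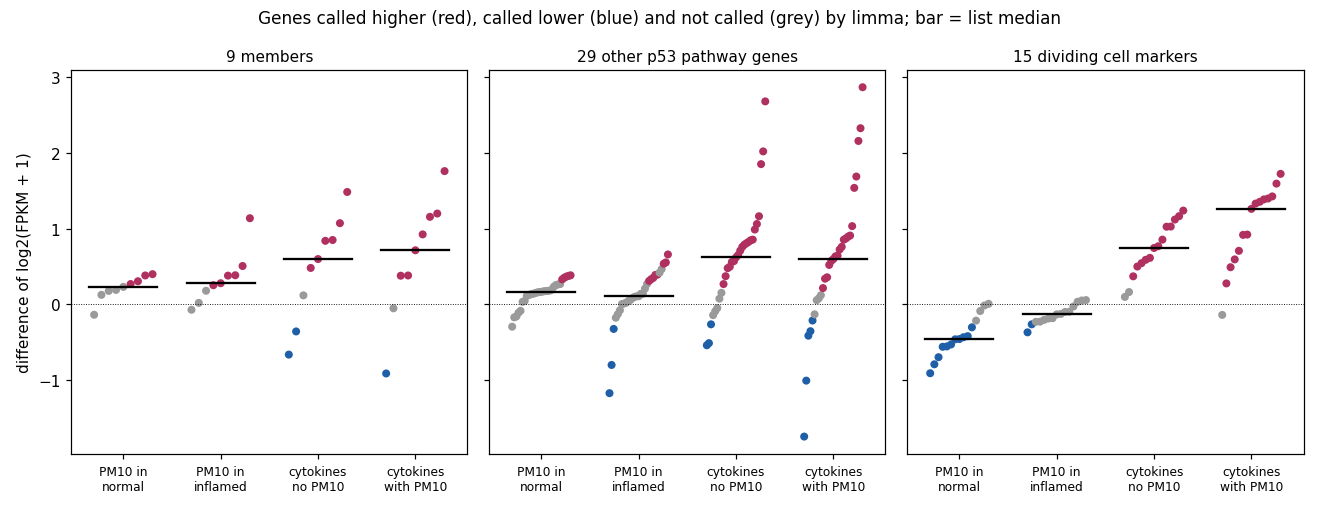
Difference of log2(FPKM + 1) (y axis) of each gene (points) of the 9 members, 29 other p53 pathway genes and 15 markers of dividing cells in 4 comparisons; red was called higher, blue lower, grey not called, and bars are list medians. The 15 markers of dividing cells had a median of -0.46 with PM10 in normal hIECs and 0.74 with the cytokines without PM10.

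Other members of these gene families moved both ways. Of 8 (CDKN1C, CDKN2C, CDKN2D, CDKN3, GADD45G, SESN2, SESN3 and MDM4), the cytokines left 1 higher and 3 lower without PM10. Of all genes, 25.9% were higher and 30.3% lower in that comparison. With PM10 the cytokines left 2 of the 8 higher and 4 lower, beside 25.8% and 39.6% of all genes. With 8 genes, these cytokine counts do not set the family members apart from all genes. GADD45G fell with the cytokines (difference -0.84, adjusted p = 0.000117) while GADD45A and GADD45B rose, and SESN3 fell (-0.89, adjusted p = 2.05e-05) while SESN1 was not called. PM10 left 0 higher and 2 lower in normal hIECs, CDKN3 (-1.06, adjusted p = 0.00304) and CDKN2C (-0.55, adjusted p = 0.0389), beside 5.51% and 3.72% of all genes. In inflamed hIECs it left 0 higher and 4 lower, beside 6.22% and 9.02% of all genes. The 4 became 3 without inflamed replicate 1, 1 without inflamed replicate 2, and 2 without either PM10-treated inflamed library or with only the compared groups fitted. The 2 in normal hIECs became 1 without normal replicate 2 or any 1 of the 4 PM10-treated libraries, each time with CDKN2C lost, and 0 with only the compared groups fitted. The 1 family member higher with the cytokines without PM10 became 0 without inflamed replicate 2. CDKN3 encodes a phosphatase that acts on CDKs and is itself known to be made in dividing cells.

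The partners of the CDK inhibitors were examined through 12 genes for G1 cyclins, CDKs, RB proteins and E2F1. The cytokines left 6 higher and 0 lower without PM10, beside 25.9% and 30.3% of all genes. With PM10 they left 8 higher and 1 lower, beside 25.8% and 39.6% of all genes. CCND1, which encodes cyclin D1, was at 12.8 ± 0.19 FPKM in normal, 25.3 ± 0.01 in inflamed and 39.0 ± 0.27 in PM10-treated inflamed hIECs (SD, n = 2), rising by 0.93 with the cytokines and by a further 0.60 (adjusted p = 0.000897) with PM10. CCND2 (0.66), CDK6 (0.64) and CDK2 (0.44) also rose with the cytokines without PM10. With PM10 in normal hIECs, 0 were higher and 2 were lower, beside 5.51% and 3.72% of all genes. The 2 were E2F1 (-0.39, adjusted p = 0.0215) and CCND3 (-0.26, adjusted p = 0.0281). In inflamed hIECs 1, CCND1, was higher and 0 were lower, beside 6.22% and 9.02% of all genes. With 12 genes, these counts in inflamed hIECs do not set the list apart from all genes. The 2 lower became 0 without either PM10-treated normal library or with only the compared groups fitted, and 1 without any 1 of the 4 inflamed libraries. The 1 higher became 2 without either normal library, when 1 was also lower.

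Markers of dividing cells moved in the same direction as most members with the cytokines. With PM10 in normal hIECs, those called moved in the opposite direction. Of 15, the cytokines left 13 higher and 0 lower without PM10 (median 0.74), beside 25.9% and 30.3% of all genes. With PM10 they left 14 higher and 0 lower (median 1.26), beside 25.8% and 39.6% of all genes. In each of these comparisons CDKN1A and CDKN2A were also higher and CDKN1B lower. PM10 in normal hIECs left 0 higher and 11 lower (median -0.46), beside 5.51% and 3.72% of all genes and 4 members higher. In inflamed hIECs it left 0 higher and 2 lower (median -0.13), beside 6.22% and 9.02% of all genes and 6 members higher. These 2 of 15 do not set the markers apart from all genes. The 11 became 5 and 4 without PM10 replicate 1 and 2, 7 without either inflamed library, 8 without either normal or either PM10-treated inflamed library, and 0 with only the compared groups fitted. The 2 became 0 without inflamed replicate 1 or PM10-treated inflamed replicate 1, 1 without the other library of either group or without either PM10-treated normal library, and 4 without either normal library. MKI67 was at 2.73 ± 0.29 FPKM in normal, 1.54 ± 0.00087 in PM10-treated normal, 6.59 ± 0.07 in inflamed and 5.49 ± 0.23 in PM10-treated inflamed hIECs (SD, n = 2). The 15 markers summed to 213 to 225 FPKM in the controls, 165 to 172 after PM10, 365 to 372 in inflamed hIECs and 337 to 338 with both. The share of dividing cells was not measured, and the part of these markers in the members' levels was not tested.

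Finally, the genes whose levels ran most nearly parallel to each of the 8 members that differed over the groups (all but SESN1), over the 8 libraries were found by Pearson's r of log2(FPKM + 1) among 6769 genes. These are descriptions, since the 8 points fall into 4 groups and share their libraries, and many genes followed the cytokines. MDM2 ran closest to MYO1C and NBN (both r = 0.999), the latter a DNA break repair gene, and ZMAT3 to ZFP91 (0.9996) and TMOD3 (0.999). CDKN1A ran with ITGA6 (0.998) and MMP13 (0.997), CDKN2A with TLN1 (0.998) and LUM (0.997), and CDKN1B with TMEM50B (0.999) and FAM117B (0.997). For GADD45A the nearest were F2R and LINC02381 (both 0.998), and for GADD45B CHPF2 (0.993) and EXTL3 (0.991). CDKN2B had the least close neighbours, RASGRP3 (0.951) and SLC35F3 (0.950).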

How the data were processed

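Poly-A selected, unstranded libraries were sequenced as 2 × 100 bases. The authors trimmed reads with Cutadapt and Sickle, aligned them to GRCh38 with HISAT2 and estimated FPKM with StringTie; these FPKM values, 1 per gene and library, are what was deposited. FPKM keeps no read counts, so no count test was run. The lowest value above 0 of a library (0.164 to 0.228 FPKM) was read as a mean depth of 1. In R 4.3.3, limma 3.58.1 with its trend option was fitted to log2(FPKM + 1) of all 8 libraries, keeping the 14206 genes that reached 1 FPKM in 2 or more of them, and Benjamini-Hochberg adjustment ran over these genes in each comparison. Intervals are from that fit, without adjustment.

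The members, the gene lists and the naming rule were chosen with earlier results of these data known. Named beside the members were up to 4 called genes of each list with the largest difference in a comparison, MDM4, genes at 0 and the 2 nearest genes per member; MKI67, EPCAM, CDH1 and a few further genes were named after their values were seen, and some genes under this rule are not reported here. Positions are from GENCODE 44 (99.5% of identifiers matched), starts from RefSeq (GRCh38.p14). Tested on simulated data for PM10 in normal hIECs (14206 genes), limma called 99 of 100 genes changed by 1 and 66 of 100 changed by 0.5, and 7.30% of its calls were unchanged genes. Alternatives covered pseudocount, filter, scaling, groups in the fit, trend, replicate block and each library left out.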

Additional observations from a re-analysis of the deposited data

Results flagged for a closer look

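The PM10 effect of 7 genes, members or named from the p53 pathway, family and G1 lists, differed between inflamed and normal hIECs. The call was limma's interaction term at an adjusted p under 0.05. The named genes were partly chosen by this same call, so the 7 cannot be set against the 6.6% of all genes called. In the full lists, the interaction was called higher for 1 of the 9 members. It was higher for 2 and lower for 3 of the 29 p53 pathway genes. Of the 8 family members 2 were lower, with MDM4 in both lists, and of the 12 G1 genes 1 was higher. CDKN2B was the one member among them, with a larger rise in inflamed hIECs (interaction 0.74). CCND1 (0.55) and RRM2B (0.52) also rose more in inflamed hIECs. GDF15 (-1.20), MDM4 (-0.96), CDKN1C (-0.91) and BBC3 (-0.59) had lower PM10 differences in inflamed than in normal hIECs. The calls of GDF15 and CCND1 held with any 1 library left out. The call of CDKN2B was lost without inflamed replicate 1 or any 1 of the 4 PM10-treated libraries (adjusted p 0.0518 to 0.0653), and so was that of RRM2B (0.0593 to 0.0701). BBC3 was lost without inflamed replicate 2 or any 1 of those 4 libraries (0.0585 to 0.0739). MDM4 was lost without PM10 replicate 2, inflamed replicate 2 or PM10-treated inflamed replicate 1 (0.0652 to 0.0685), and CDKN1C without normal replicate 2, either PM10-treated normal library, inflamed replicate 2 or PM10-treated inflamed replicate 2 (0.0559 to 0.0885). With 2 libraries a group, no single library could be tested for standing apart within its group.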

How the results depend on the processing

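Members called were recounted under 10 alternatives (9 for the interaction) and with each of the 8 libraries left out. No called difference of a member or named gene turned its direction; of the members' single values, 748 stayed on their side of the threshold, 44 lost and 4 gained a call. For PM10 in normal hIECs the 4 members called became 0 when the fit held only the groups compared (23 of all genes), and 0 to 6 with a library left out (192 to 2601 of all genes, against 1311); 2067 of all genes were called after rescaling without mitochondrial DNA genes. For PM10 in inflamed hIECs the 6 became 2 to 6 (672 to 2997 of all genes, against 2165), and for the interaction the 1 became 0 to 2 (260 to 1257, against 937). The cytokine counts of 8 were 7 to 9 without PM10 and 8 to 8 with it. The interaction split of all genes, 300 higher and 637 lower, was 453 and 539 after median centring and 425 and 487 after quantile normalization. A mean filter of at least 5 FPKM left SESN1 out and changed the genes tested to 8056, and the cytokine calls among all genes to 4931 and 5551, from 7988 and 9286. Replicate numbers did not pair the libraries, as deviations from group means correlated by -0.0015 to 0.079 between groups. With the replicate block, 4, 8, 5, 8 and 1 members were called for PM10 in normal hIECs, cytokines without PM10, PM10 in inflamed hIECs, cytokines with PM10 and the interaction; MDM2 was lost in the third (adjusted p = 0.0513). The causes were not tested.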
